A study of Mus musculus with 12 samples.

Results

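The 28 genes described here encode enzymes that break down the branched-chain amino acids leucine, isoleucine and valine, the regulators of that pathway, and enzymes that use ketone bodies. They were taken by symbol from the 24341 entries of the authors' deposited expression table, and all 28 were found. By role, 2 are transaminases, 5 make up or control the branched-chain ketoacid dehydrogenase, 4 belong to the leucine arm, 7 to the isoleucine and valine arms, 7 carry propionyl-CoA to succinyl-CoA and 3 act on ketone bodies.

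The first step of the pathway moves the amino group off leucine, isoleucine or valine, and the second, irreversible step removes a carboxyl group in the mitochondrial branched-chain ketoacid dehydrogenase, which a kinase switches off and a phosphatase switches on. Leucine then yields acetyl-CoA and the ketone body acetoacetate, isoleucine yields acetyl-CoA and propionyl-CoA, and valine yields propionyl-CoA. Propionyl-CoA enters the citric acid cycle as succinyl-CoA. Adipocytes are known to raise this pathway as they differentiate and to use the carbon for fatty acids. Acly encodes ATP citrate lyase, which makes acetyl-CoA from citrate outside mitochondria.

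RNA sequencing covered 12 libraries in 4 groups of 3. All cells were preadipocytes from adipose tissue of C57Bl/6 mice, made immortal with SV40 and kept in DMEM containing 10% serum. Aclyf/f cells carry the floxed, intact gene and are the controls, and Acly-/- cells carry the deletion. Preadipocytes of both genotypes are day 0, and adipocytes of both were collected at day 4 of a differentiation protocol that included rosiglitazone, an agonist of the nuclear receptor PPARγ. How Acly was deleted, and whether lines are clones or libraries are separate cultures, the sources used here do not say. The p-values thus rest on the spread among these libraries alone, which may be technical. Levels are FPKM, fragment counts scaled by transcript length and library size, and group values are mean ± SD with n = 3 libraries.

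Acly stood at 84.9 to 89.5 FPKM in Aclyf/f and 11.9 to 12.5 FPKM in Acly-/- preadipocytes, and at 722 to 814 and 11.02 to 13.2 FPKM in adipocytes, over the whole gene. Estimated depth differed by up to 1.93-fold between libraries. Acly-/- preadipocyte library 3 stood apart in that the small nucleolar RNA gene Snord12 took 8.90% of its summed FPKM, against 0.922% to 2.56% for the leading gene of any other library. Of 8 adipocyte markers 7 were tested, and leptin, Lep, lay on the floor of the table in all 12 libraries. Summed adipocyte markers ranged from 1078 to 1145 FPKM in Aclyf/f and 641 to 703 FPKM in Acly-/- preadipocytes, and from 11114 to 11950 and 6746 to 8335 FPKM in adipocytes. Most of the adipocyte sums was Fabp4, at 8835 ± 405 and 6113 ± 702 FPKM. Without Acly 6 of the 7 were lower in adipocytes (limma adjusted p under 0.05), against 29.2% of all genes tested, with a median log2 fold change of -0.82. Adipoq differed most, at 544 ± 7.05 against 60.7 ± 1.24 FPKM, and Pparg least, at 161 ± 1.18 against 148 ± 13.7 FPKM. Of 7 preadipocyte markers, Dlk1, Thy1 and Gata3 stayed under 1 FPKM throughout, and the sum fell from 641 to 745 down to 134 to 199 FPKM in Aclyf/f cells, but stood at 834 to 1156 and 692 to 738 FPKM in Acly-/- cells. Most of that sum was Ly6a, at 834 ± 165 FPKM in Acly-/- preadipocytes and 649 ± 27.1 FPKM in Acly-/- adipocytes (limma adjusted p = 0.0967). The other 2 tested preadipocyte markers fell with differentiation in Acly-/- cells, Pdgfra from 72.1 ± 7.08 to 30.3 ± 2.17 FPKM and Pdgfrb from 104 ± 5.48 to 34.6 ± 4.36 FPKM (adjusted p = 2.97e-08 and 5.95e-09). All 3 were higher in Acly-/- than in Aclyf/f adipocytes, as were 25.6% of all genes tested. In preadipocytes without Acly 2 of the 3 were higher, against 19.7% of all genes tested. These were Ly6a (834 ± 165 against 467 ± 60.9 FPKM) and Pdgfrb (104 ± 5.48 against 87.4 ± 1.25 FPKM). Pdgfra was lower there without Acly (72.1 ± 7.08 against 131 ± 8.63 FPKM, limma adjusted p = 2.97e-06). Markers of leukocytes, endothelium, mesothelium and skeletal muscle summed to at most 6.39 FPKM per list and library, with Ptprc, Cdh5 and Myod1 on the floor in every library. Smooth muscle markers summed to 530 to 559 and 155 to 172 FPKM in Aclyf/f and Acly-/- preadipocytes, and to 38.3 to 56.0 and 62.2 to 77.4 FPKM in adipocytes. Most of these sums was Acta2 and Tagln. Myh11, on the same list, rose with differentiation, from 0.116 ± 0.0647 to 6.96 ± 0.616 FPKM in Aclyf/f cells. In Acly-/- cells Myh11 rose from 0.134 ± 0.0834 to 3.14 ± 0.355 FPKM, so that it was lower without Acly in adipocytes. The part of all these markers in the results below was not tested. In these bulk libraries fewer cells of a type and less RNA per cell cannot be told apart.

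Of the 28 genes, 27 passed the filter of at least 1 FPKM in at least 3 libraries and were tested with limma on log2(FPKM + 1). Bdh1, the mitochondrial enzyme that interconverts both main ketone bodies, did not, at 0.01 to 0.0731 FPKM over all libraries with 0.01 as the floor of the table. A gene is called when limma's Benjamini-Hochberg adjusted p, over all 11777 genes tested, is under 0.05. The added 1 makes a log2 fold change smaller than the true change where a gene is low, and folds are ratios of mean FPKM.

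Differentiation with Acly intact raised nearly the whole set. In Aclyf/f cells 26 of 27 members rose and only Bcat1 fell, so that all were called, against 72.5% of all genes tested (36.5% that rose and 36.0% that fell). The median log2 fold change was 1.56 for the members and 0.00 for all genes tested. The leading rises were in the mitochondrial transaminase Bcat2 at 22.3-fold, the valine enzyme Hibch at 13.3-fold, the valine enzyme Aldh6a1 at 12.9-fold and the dehydrogenase core Dbt at 12.4-fold. In Acly-/- cells 23 members rose and 2 fell (Bcat1 and Bckdk), against 61.4% of all genes called (30.4% up and 31.0% down), with a member median of 1.27. The adipocyte and preadipocyte groups did not overlap for 27 members in Aclyf/f and 25 in Acly-/- cells, as they did not for 75.7% and 64.6% of all genes tested.

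Without Acly, adipocytes held less RNA of most members. In Acly-/- against Aclyf/f adipocytes 22 of 27 members fell and 2 rose, or 88.9% called against 54.8% of all genes tested (29.2% lower and 25.6% higher), and the member median was -0.58 on the log2 scale against -0.02 for all genes. The rises were in Bcat1 and in the ketone-using enzyme Oxct1. The 3 members not called were Acadsb, Acad8 and Mmaa. For 25 members the groups did not overlap, as for 63.2% of all genes. Summed over the 28 members, the level was 2072 to 2087 FPKM in Aclyf/f and 1296 to 1366 FPKM in Acly-/- adipocytes. For 23 members the Acly-/- adipocyte mean lay above the Aclyf/f preadipocyte and below the Aclyf/f adipocyte mean, as for 26.9% of all genes tested. Among genes that rose with differentiation in Aclyf/f cells, that order held for 23 of 26 members, or 88.5%, and for 67.3% of all genes.

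In preadipocytes the split was different. Without Acly 5 of 27 members rose and 9 fell, or 51.9% called against 42.2% of all genes tested, with 18.5% of members higher against 19.7% and 33.3% lower against 22.4%. The share that rose is near the background. The member median was -0.09 against -0.01 for all genes, and groups did not overlap for 15 members, as for 49.9% of all genes. Summed levels were 570 to 581 FPKM with Acly and 500.3 to 517 FPKM without. Across the 2 stages, which share no library, 7 members were lower at both, 1 was higher at both (Bcat1), 4 were higher before and lower after differentiation (Bckdk, Pccb, Mmab and Aacs) and 1 went the other way (Oxct1). Over all genes tested these patterns held for 7.63%, 7.09%, 4.75% and 5.33%, against 25.9%, 3.70%, 14.8% and 3.70% of the 27 members. The preadipocyte calls of Bckdk and of Mccc2, which was among those lower at both, were lost under alternatives given below. Rises made up 46.8% of calls over all genes in preadipocytes and 46.7% in adipocytes, and 34.7% and 36.4% once every library was scaled to one FPKM total. With that scaling 4 members rose and 11 fell in preadipocytes, and 2 rose and 23 fell in adipocytes. The FPKM total of Acly-/- preadipocyte library 3, the library led by Snord12, was 1.15 times the mean total, against at most 1.06 times elsewhere. This scaling thus lowered all other genes most in that library.

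**Figure D1:**
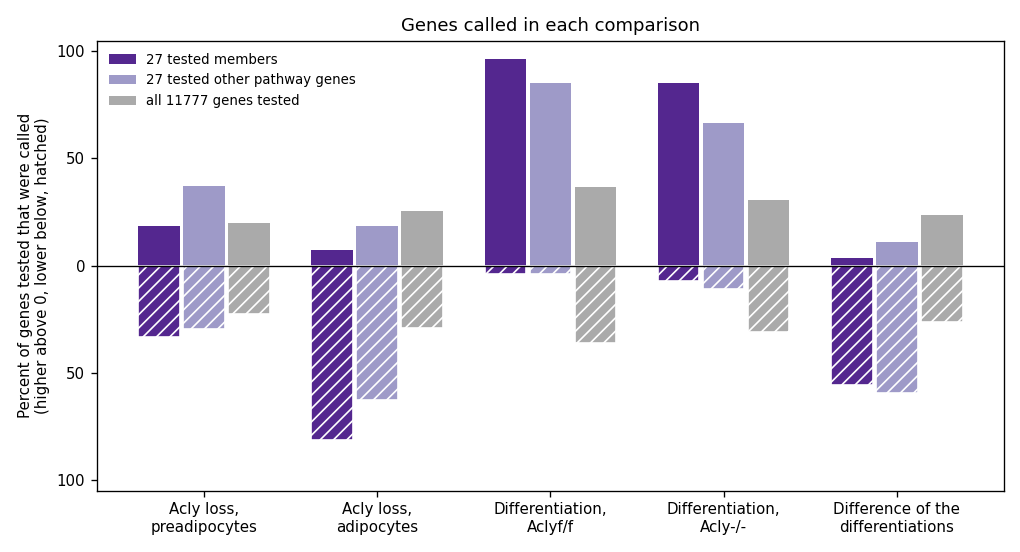
Percent of genes called higher (above 0) or lower (below 0, hatched) in each of 5 comparisons, for the 27 tested members, 27 tested other genes of the pathway and all 11777 genes tested. In adipocytes without Acly 22 of 27 members were lower, whereas in preadipocytes 5 were higher and 9 lower.

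**Figure D2:**
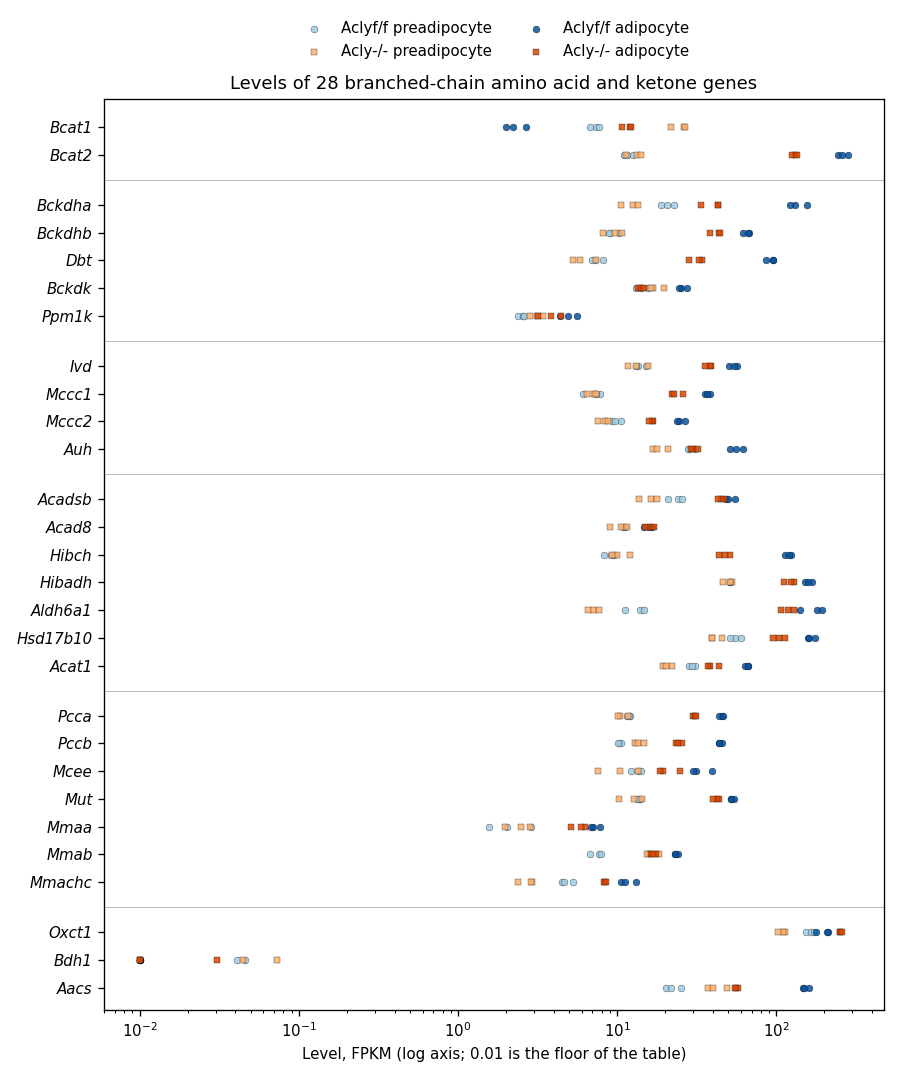
Level of each of the 28 genes in each of 12 libraries, in FPKM on a log axis, with genes grouped by role and 1 point per library. Most adipocyte libraries of Aclyf/f cells lie to the right of those of Acly-/- cells, while Bcat1 and Oxct1 show the reverse and Bdh1 lies near the floor of 0.01.

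The 2 transaminases went opposite ways. Bcat1, the cytosolic form that is usual in brain and proliferating cells (chromosome 6, 144993835 to 145076157), stood at 7.35, 7.68 and 6.73 FPKM in Aclyf/f and 26.4, 21.7 and 26.6 FPKM in Acly-/- preadipocytes. In adipocytes it stood at 2.22, 2.68 and 2.01 FPKM with Acly and 12.1, 10.7 and 12.3 FPKM without. All Acly-/- libraries lay above all Aclyf/f libraries, at either stage. Bcat1 was 3.43-fold higher without Acly in preadipocytes (limma log2 fold change 1.65, SE 0.10, adjusted p = 5.72e-08) and 5.07-fold higher in adipocytes (1.94, SE 0.10, adjusted p = 6.01e-09). It fell 3.15-fold with differentiation in Aclyf/f and 2.13-fold in Acly-/- cells. The difference between these falls was not called (adjusted p = 0.107), but was with a pseudocount of 0.1 (adjusted p = 0.0184) or 0.01 (0.0155) in place of 1.

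Bcat2, the mitochondrial form and the main one in most tissues (chromosome 7, 45568967 to 45589710), stood at 10.99, 11.5 and 12.6 FPKM in Aclyf/f and 11.5, 13.3 and 14.1 FPKM in Acly-/- preadipocytes, which overlap (adjusted p = 0.249). In adipocytes it reached 284, 243 and 258 FPKM with Acly and 131, 125 and 134 FPKM without. The adipocyte groups were far apart, at 2.01-fold lower without Acly (log2 fold change -1.0003, SE 0.09, adjusted p = 5.09e-07). Differentiation raised Bcat2 22.3-fold in Aclyf/f and 10.1-fold in Acly-/- cells, and the difference was called (-1.13, adjusted p = 6.42e-06). Of the summed FPKM of both transaminases, Bcat1 took 34.7% to 40.1% in Aclyf/f and 62.0% to 69.7% in Acly-/- preadipocytes, and 0.773% to 1.09% and 7.84% to 8.49% in adipocytes. The share of Bcat1 was thus higher in every Acly-/- library than in every Aclyf/f library of its stage.

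The branched-chain ketoacid dehydrogenase is built of the E1 subunits Bckdha and Bckdhb and the E2 core Dbt, with Bckdk as its kinase and Ppm1k as its phosphatase. All 5 genes were called lower in Acly-/- adipocytes, as were 29.2% of all genes tested, although the groups overlapped for Ppm1k. Bckdha (chromosome 7, 25629852 to 25658782) stood at 22.7, 20.6 and 18.8 FPKM in Aclyf/f and 10.6, 12.5 and 13.6 FPKM in Acly-/- preadipocytes. In adipocytes it stood at 157, 132 and 122 FPKM with Acly and 43.1, 42.9 and 33.9 FPKM without. It was lower without Acly in all libraries of both stages, 1.69-fold in preadipocytes (log2 fold change -0.71, SE 0.12, adjusted p = 0.000398) and 3.43-fold in adipocytes (-1.75, SE 0.12, adjusted p = 6.89e-08). In GENCODE M21, 61.7% of the exonic bases of Bckdha also lie in B3gnt8 on the other strand, which stood at 0.01 to 1.25 FPKM here. The loci given with the deposited values do not overlap, as B3gnt8 ends at 25629490 and Bckdha starts at 25629852.

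Dbt (chromosome 3, 116513070 to 116549981) stood at 8.14, 7.25 and 6.97 FPKM in Aclyf/f and 5.88, 7.33 and 5.31 FPKM in Acly-/- preadipocytes, which overlap. Their difference was not called (log2 fold change -0.24, adjusted p = 0.0808), but was when Acly-/- preadipocyte library 2 was left out (adjusted p = 0.0135). In adipocytes Dbt stood at 86.8, 95.4 and 95.4 FPKM with Acly and 34.2, 28.3 and 32.9 FPKM without. These groups lay far apart, at 2.91-fold lower without Acly (-1.51, SE 0.11, adjusted p = 7.17e-08). Bckdhb differed less, at 65.1 ± 3.22 against 42.2 ± 3.23 FPKM in adipocytes (a 1.54-fold difference, adjusted p = 0.000123), and at 9.41 ± 0.803 and 9.50 ± 1.27 FPKM in preadipocytes (adjusted p = 0.964). Relative to Bckdhb in the same library, Dbt stood at 1.41 to 1.44 in Aclyf/f and 0.737 to 0.777 in Acly-/- adipocytes, a ratio of FPKM values. Bckdha relative to Bckdhb was 1.84 to 2.56 and 0.770 to 1.12. Both ratios were lower in every Acly-/- adipocyte library than in every Aclyf/f one.

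The kinase gene Bckdk (chromosome 7, 127904073 to 127909664) stood at 13.2, 15.6 and 14.1 FPKM in Aclyf/f and 16.7, 16.4 and 19.7 FPKM in Acly-/- preadipocytes, and at 27.7, 25.3 and 24.4 against 13.6, 14.2 and 14.7 FPKM in adipocytes. It was thus higher without Acly before differentiation and lower after it, and neither pair of groups overlapped. The adipocyte difference was 1.82-fold (log2 fold change -0.82, adjusted p = 4.33e-06). The preadipocyte difference was small (0.29, adjusted p = 0.0195) and was no longer called when Aclyf/f preadipocyte library 1 (adjusted p = 0.0777) or 3 (0.0550), or Acly-/- preadipocyte library 3 (0.0763), was left out. It also ended with libraries scaled to one FPKM total (0.0564) and with only the compared groups fitted (0.0611). With differentiation Bckdk rose 1.80-fold in Aclyf/f cells but fell 1.25-fold in Acly-/- cells (adjusted p = 1.72e-06 and 0.0107), and the difference was called (-1.10, adjusted p = 1.01e-05). The phosphatase gene Ppm1k was low, at 4.96 ± 0.610 against 3.83 ± 0.636 FPKM in adipocytes, where the groups overlapped. Its call there (adjusted p = 0.0327) ended without Aclyf/f adipocyte library 2 (0.0749) or 3 (0.136), without Acly-/- adipocyte library 2 (0.0612) or 3 (0.144), and under 4 other alternatives (0.0526 to 0.0840).

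**Figure D3:**
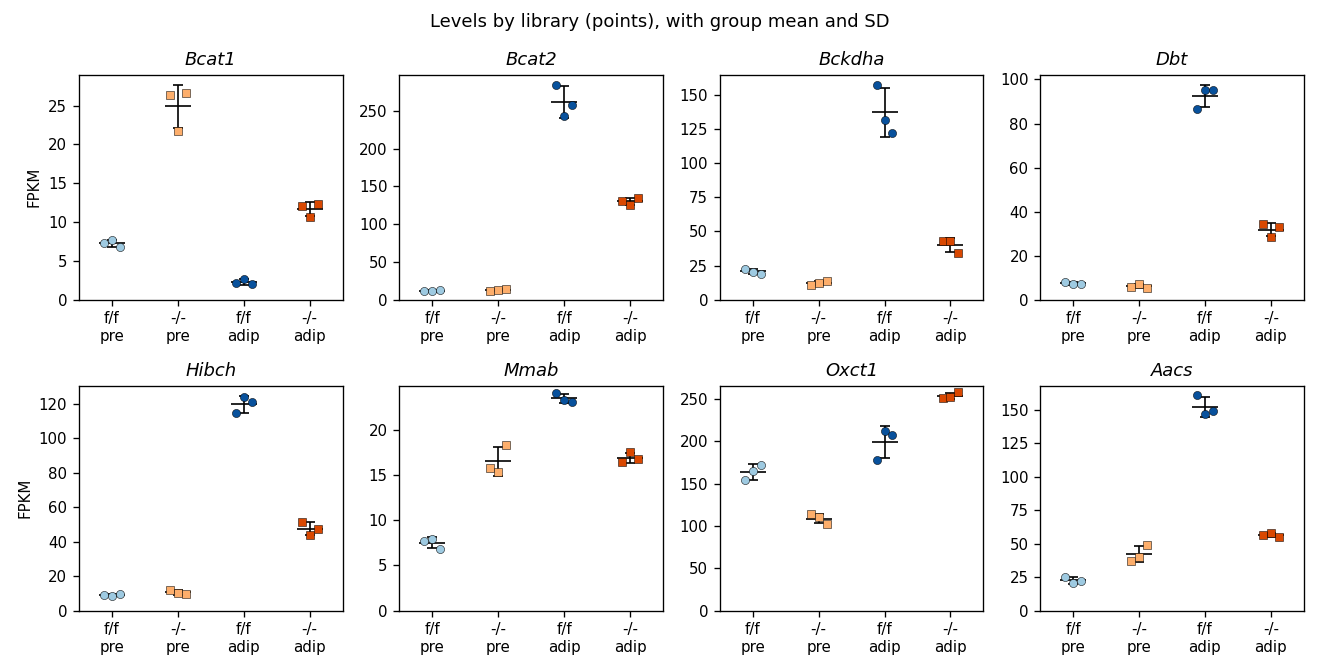
Level in each library (points), with group mean and SD (bars), for 8 of the genes in FPKM on linear axes from 0. Bcat1 was highest in Acly-/- preadipocytes, Oxct1 in Acly-/- adipocytes and the other 6 in Aclyf/f adipocytes.

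In the leucine arm all 4 genes fell in Acly-/- adipocytes, against 29.2% of all genes tested. Ivd, isovaleryl-CoA dehydrogenase, takes the first step after the dehydrogenase complex and averaged 54.1 ± 3.03 FPKM in adipocytes that had Acly, against 37.7 ± 1.75 FPKM in those that lacked it (a 1.43-fold fall, adjusted p = 0.000596). Mccc1 and Mccc2 are the subunits of the biotin enzyme methylcrotonyl-CoA carboxylase. Mccc1 (chromosome 3, 35956292 to 36000694) stood at 7.79, 7.33 and 6.14 FPKM in Aclyf/f and 6.50, 7.21 and 7.38 FPKM in Acly-/- preadipocytes, and at 38.4, 35.6 and 36.7 against 25.9, 22.3 and 22.6 FPKM in adipocytes. The preadipocyte groups overlapped (adjusted p = 0.964) and the adipocyte groups did not (1.56-fold lower, log2 fold change -0.62, adjusted p = 7.09e-05). Mccc2 showed a like adipocyte difference, 25.1 ± 1.59 against 16.4 ± 0.384 FPKM (adjusted p = 3.62e-05). In preadipocytes Mccc2 was 9.83 ± 0.643 and 8.23 ± 0.622 FPKM (adjusted p = 0.0313), a call lost without Aclyf/f preadipocyte library 1 (0.113) or 3 (0.0626), without Acly-/- preadipocyte library 1 (0.0521) or 2 (0.114), and with only the compared groups fitted (0.0909).

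Auh, the hydratase of the leucine arm (chromosome 13, 52835107 to 52929704), stood at 31.0, 28.3 and 28.01 FPKM in Aclyf/f and 16.9, 21.0 and 17.8 FPKM in Acly-/- preadipocytes. In adipocytes it stood at 62.1, 55.7 and 51.3 FPKM with Acly and 29.9, 29.3 and 32.5 FPKM without. It was lower without Acly in every library at each stage, by 1.57-fold (log2 fold change -0.63, SE 0.09, adjusted p = 0.000117) and 1.84-fold (-0.86, SE 0.09, adjusted p = 4.16e-06). Acly-/- adipocytes held 30.6 ± 1.69 FPKM of Auh and Aclyf/f preadipocytes 29.1 ± 1.68 FPKM. Its rise with differentiation, 1.94-fold and 1.65-fold, was not called different between genotypes (-0.23, SE 0.13, adjusted p = 0.157).

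Members of the isoleucine and valine arms differed among themselves. Hibch, which frees 3-hydroxyisobutyrate from CoA on the valine arm (chromosome 1, 52845038 to 52920986), stood at 9.21, 8.22 and 9.53 FPKM in Aclyf/f and 12.1, 10.0 and 9.36 FPKM in Acly-/- preadipocytes. In adipocytes it stood at 114, 124 and 121 FPKM with Acly and 51.4, 43.8 and 47.4 FPKM without. The preadipocyte groups overlapped (adjusted p = 0.108, and 0.0421 without Acly-/- preadipocyte library 3), while Acly-/- adipocytes lay 2.52-fold lower (log2 fold change -1.32, SE 0.09, adjusted p = 9.01e-08). Differentiation raised Hibch 13.3-fold with Acly and 4.52-fold without (difference -1.52, adjusted p = 1.04e-06).

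Aldh6a1, the last enzyme of the valine arm (chromosome 12, 84430717 to 84451024), was lower without Acly before differentiation as well. It stood at 11.2, 13.9 and 14.8 FPKM in Aclyf/f and 7.72, 7.05 and 6.59 FPKM in Acly-/- preadipocytes, 1.87-fold lower (log2 fold change -0.81, SE 0.12, adjusted p = 0.000168). In adipocytes it stood at 141, 180 and 194 FPKM with Acly and 129.5, 119 and 107 FPKM without, 1.45-fold lower (-0.52, SE 0.12, adjusted p = 0.00301). Neither pair of groups overlapped. Its rise was 12.9-fold in Aclyf/f and 16.7-fold in Acly-/- cells, a difference that was not called (0.29, SE 0.18, adjusted p = 0.192). Of its exonic bases 18.6% lie in Bbof1 on the other strand in GENCODE M21.

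The thiolase Acat1, which splits the last isoleucine intermediate and also acts on acetoacetyl-CoA, and the dehydrogenase Hsd17b10 were lower at both stages. Acat1 was 29.6 ± 1.18 and 20.6 ± 1.34 FPKM in Aclyf/f and Acly-/- preadipocytes (adjusted p = 0.000137), and 65.4 ± 1.90 and 39.8 ± 3.38 FPKM in adipocytes (adjusted p = 3.83e-06). Hsd17b10 was 55.3 ± 4.33 and 41.5 ± 3.54 FPKM, and then 165 ± 8.43 and 104.7 ± 9.15 FPKM (adjusted p = 0.00205 and 2.75e-05). Hibadh, the dehydrogenase after Hibch, was called in adipocytes alone of the 2 stages, at 159 ± 7.66 against 122 ± 8.87 FPKM (adjusted p = 0.000579). Acadsb, the isoleucine acyl-CoA dehydrogenase, was lower in preadipocytes, 23.4 ± 2.40 against 15.97 ± 2.07 FPKM (adjusted p = 0.000782). In adipocytes Acadsb was 51.4 ± 3.54 and 45.1 ± 2.02 FPKM (log2 fold change -0.18, SE 0.10, adjusted p = 0.136). Acad8, its counterpart for valine, was called at neither stage, at 15.7 ± 0.907 and 16.01 ± 1.10 FPKM in adipocytes (0.03, SE 0.09, adjusted p = 0.813).

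**Figure D4:**
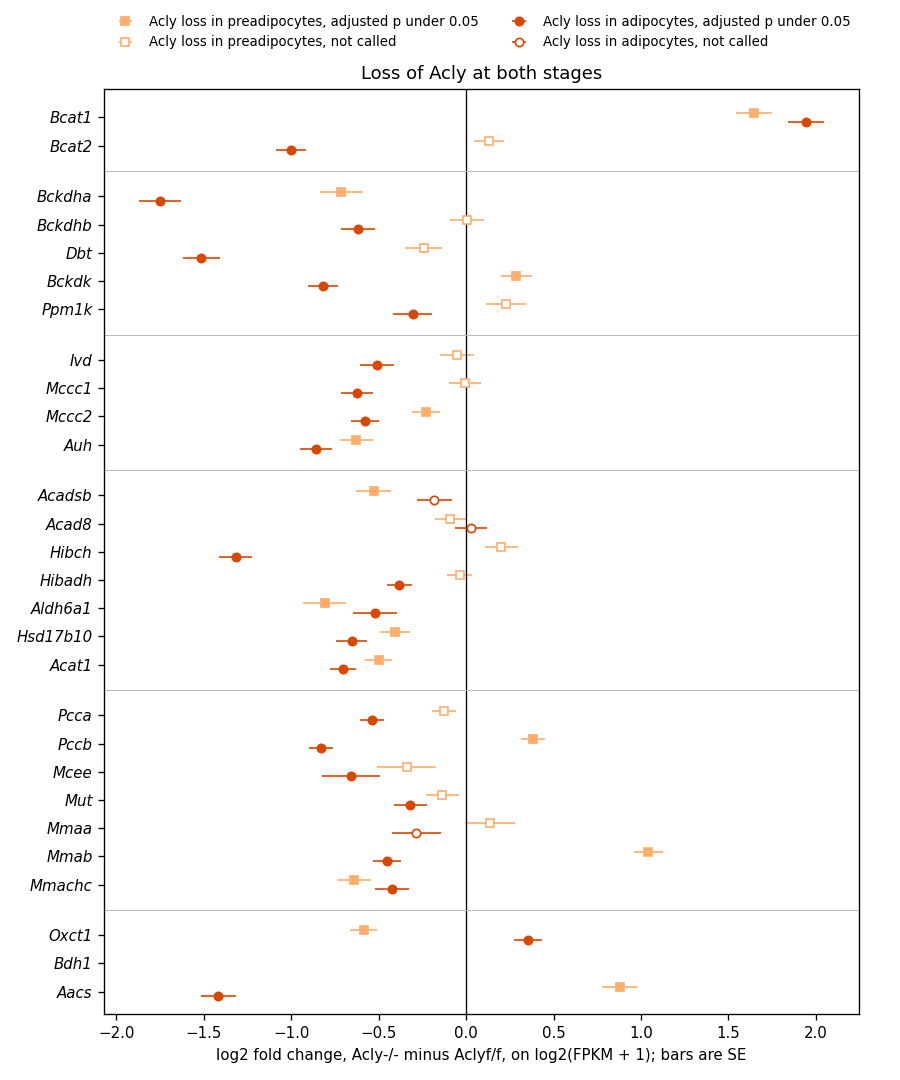
Log2 fold change of each tested member for Acly-/- minus Aclyf/f in preadipocytes (squares) and adipocytes (circles), with SE as bars and genes grouped by role. Filled symbols were called, which holds for 14 members (51.9%) in preadipocytes and 24 (88.9%) in adipocytes. Of all genes tested 42.2% and 54.8% were called.

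The end of the valine and isoleucine arms turns propionyl-CoA into succinyl-CoA by propionyl-CoA carboxylase (Pcca and Pccb), an epimerase (Mcee) and a cobalamin-dependent mutase (Mut, named Mmut in RefSeq), with Mmaa, Mmab and Mmachc handling the cobalamin. In Acly-/- adipocytes 6 of 7 fell, against 29.2% of all genes tested. Pccb (chromosome 9, 100982032 to 101034940) stood at 10.3, 10.5 and 10.1 FPKM in Aclyf/f and 13.0, 13.6 and 14.8 FPKM in Acly-/- preadipocytes, and at 45.7, 43.7 and 43.4 against 25.6, 23.5 and 24.3 FPKM in adipocytes. It was higher without Acly in all preadipocyte libraries and lower in all adipocyte libraries, by 1.33-fold (log2 fold change 0.38, SE 0.07, adjusted p = 0.000558) and 1.81-fold (-0.83, SE 0.07, adjusted p = 3.31e-07). Its partner Pcca was 11.8 ± 0.290 and 10.7 ± 0.806 FPKM in preadipocytes (adjusted p = 0.149) and 45.3 ± 1.32 and 30.8 ± 0.753 FPKM in adipocytes (a 1.47-fold fall, adjusted p = 1.82e-05). Pccb relative to Pcca, a ratio of FPKM values, was 0.848 to 0.916 in Aclyf/f and 1.25 to 1.33 in Acly-/- preadipocytes, and 0.939 to 0.996 and 0.761 to 0.852 in adipocytes.

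Mmab, which makes the adenosyl form of cobalamin for the mutase (chromosome 5, 114431034 to 114444073), had the largest log2 rise of this arm without Acly before differentiation. It stood at 7.73, 7.91 and 6.79 FPKM in Aclyf/f and 15.8, 15.4 and 18.3 FPKM in Acly-/- preadipocytes, and at 24.002, 23.3 and 23.1 against 16.4, 17.5 and 16.7 FPKM in adipocytes. Without Acly it was 2.2-fold higher in preadipocytes (log2 fold change 1.04, SE 0.08, adjusted p = 3.82e-07) and 1.39-fold lower in adipocytes (-0.45, SE 0.08, adjusted p = 0.000372), with no overlap at either stage. Differentiation raised it 3.14-fold with Acly, while without Acly no change was detected (0.04, SE 0.08, adjusted p = 0.719).

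The other members of this arm were less far apart. Mut was 52.9 ± 1.15 and 42.2 ± 1.79 FPKM in adipocytes (a 1.25-fold fall, adjusted p = 0.0109) and Mcee 33.6 ± 5.19 and 20.9 ± 3.42 FPKM (adjusted p = 0.00459). In preadipocytes neither was called (adjusted p = 0.264 and 0.120), but both were without Acly-/- preadipocyte library 2 (0.0485 and 0.0196). Mmachc, which strips the upper ligand from incoming cobalamin, was lower at both stages, 4.81 ± 0.422 against 2.74 ± 0.314 FPKM in preadipocytes and 11.7 ± 1.35 against 8.41 ± 0.150 FPKM in adipocytes (adjusted p = 0.000158 and 0.00240). Mmaa was 2.15 ± 0.662, 2.43 ± 0.439, 7.24 ± 0.524 and 5.78 ± 0.583 FPKM in preadipocytes with and without Acly and adipocytes with and without Acly. It was called at neither stage (adjusted p = 0.475 and 0.106), but in adipocytes it was with libraries scaled to one FPKM total (0.0472) and with only the compared groups fitted (0.0324).

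The ketone body enzymes Oxct1 and Aacs moved in opposite directions. Oxct1 is the mitochondrial enzyme that activates acetoacetate for oxidation (chromosome 15, 4026428 to 4155344). It stood at 154, 165 and 172 FPKM in Aclyf/f and 114, 110.0 and 103 FPKM in Acly-/- preadipocytes, and at 178, 212 and 207 against 251, 253 and 258 FPKM in adipocytes. Without Acly it was lower in all preadipocyte libraries and higher in all adipocyte libraries, by 1.51-fold (log2 fold change -0.59, SE 0.08, adjusted p = 4.96e-05) and 1.27-fold (0.35, SE 0.08, adjusted p = 0.00176). Its rise with differentiation was 2.33-fold in Acly-/- cells and 1.22-fold in Aclyf/f cells, and the latter was not called after quantile normalization (adjusted p = 0.170). Oxct1 was the member with the highest FPKM in 3 of the 4 groups, and came after Bcat2 in Aclyf/f adipocytes.

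Aacs activates acetoacetate in the cytosol, where the product can enter fatty acid or sterol synthesis without ATP citrate lyase (chromosome 5, 125475873 to 125517405). It stood at 25.2, 20.3 and 21.8 FPKM in Aclyf/f and 37.3, 40.2 and 49.1 FPKM in Acly-/- preadipocytes, and at 161, 147 and 149 against 56.1, 57.7 and 55.2 FPKM in adipocytes. Without Acly it was 1.88-fold higher before differentiation (log2 fold change 0.88, SE 0.10, adjusted p = 1.15e-05) and 2.70-fold lower after it (-1.42, SE 0.10, adjusted p = 7.36e-08), with no overlap. Differentiation raised Aacs 6.78-fold with Acly and 1.33-fold without. That difference was -2.30 on the log2 scale (SE 0.14, adjusted p = 4.10e-08), the largest among the members in absolute size.

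The 4 members that were higher before and lower after differentiation without Acly are shown by promoter windows, to set their sequences side by side. Each window runs from 250 bases before to 50 after a RefSeq start (GRCm38.p6). For Mmab and Pccb, on the minus strand, that start lies inside the gene end given above (114444073 and 101034940). For Bckdk the preadipocyte call was lost under the alternatives given above. Capitals mark the CCAAT box (CCAAT or ATTGG) and the GC box (GGGCGG or CCGCCC), searched on both strands, and no marked motifs overlap.
Bckdk, chr7:127903823-127904122, plus strand: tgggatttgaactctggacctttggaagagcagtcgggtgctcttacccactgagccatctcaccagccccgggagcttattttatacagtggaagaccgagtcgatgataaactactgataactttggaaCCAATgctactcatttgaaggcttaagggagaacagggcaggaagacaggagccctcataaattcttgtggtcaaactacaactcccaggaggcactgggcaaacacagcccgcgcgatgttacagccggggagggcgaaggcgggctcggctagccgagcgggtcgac
Pccb, chr9:101034835-101035134, minus strand: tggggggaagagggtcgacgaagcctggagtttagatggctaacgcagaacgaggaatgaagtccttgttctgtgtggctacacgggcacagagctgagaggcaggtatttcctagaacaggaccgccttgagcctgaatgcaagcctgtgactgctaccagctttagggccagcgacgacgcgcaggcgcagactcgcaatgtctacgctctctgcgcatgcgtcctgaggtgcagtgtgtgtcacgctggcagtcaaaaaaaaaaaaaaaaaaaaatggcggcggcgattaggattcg
Mmab, chr5:114443978-114444277, minus strand: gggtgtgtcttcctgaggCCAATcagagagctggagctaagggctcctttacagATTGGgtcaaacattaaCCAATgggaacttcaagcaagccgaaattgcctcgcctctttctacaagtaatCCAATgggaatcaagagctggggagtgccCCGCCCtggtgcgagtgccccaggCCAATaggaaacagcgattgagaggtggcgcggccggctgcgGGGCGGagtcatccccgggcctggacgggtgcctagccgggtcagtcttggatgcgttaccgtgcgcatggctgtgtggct
Aacs, chr5:125475623-125475922, plus strand: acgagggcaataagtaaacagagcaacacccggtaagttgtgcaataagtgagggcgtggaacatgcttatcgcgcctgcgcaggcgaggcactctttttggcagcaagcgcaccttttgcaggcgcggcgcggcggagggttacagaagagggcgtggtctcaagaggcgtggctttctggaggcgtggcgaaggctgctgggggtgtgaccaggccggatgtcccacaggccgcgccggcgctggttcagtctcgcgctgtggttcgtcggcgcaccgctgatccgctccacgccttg
The 4 windows do not share a motif set. Mmab holds 5 CCAAT boxes and 2 GC boxes, Bckdk 1 CCAAT box and no GC box, and Pccb and Aacs neither. At least 5 CCAAT boxes occur in 0.271% of the 32851 windows of all genes. Of the members, 25 have a window in that table (32 windows in all). A CCAAT box lies in 53.1% of these 32 windows against 37.4% of all windows, a GC box in 50% against 35.7%, and the E-box CACGTG in 3.12% against 7.15%. The sterol regulatory element TCACNCCAC, the composite C/EBP-ATF element TGATGNAA and the PPAR-RXR repeat (AGGTCA, any 1 base, AGGTCA), each searched on both strands, occur in none of the 32, against 1.24%, 3.97% and 0.0396% of all windows. A match is a description of letters and not a binding site.

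The genotypes differed in how far differentiation moved 16 of 27 members. The difference was called lower in Acly-/- cells for 15 members and higher for 1, Oxct1, or 59.3% called against 50.2% of all genes tested (26.4% lower and 23.7% higher). Of the 23 members that rose in both genotypes, 12 rose less without Acly by this test, or 52.2%, against 42.2% of the 2652 genes that rose in both. The dehydrogenase complex and its regulators were all among the 15, as were 3 of 4 leucine genes, 2 of 7 isoleucine and valine genes and 3 of 7 propionyl-CoA genes. After Aacs the largest differences were in Hibch (-1.52, SE 0.13, adjusted p = 1.04e-06), Mmab (-1.49, SE 0.11, adjusted p = 2.95e-07), Dbt (-1.27, SE 0.15, adjusted p = 1.44e-05) and Pccb (-1.21, SE 0.10, adjusted p = 4.05e-07). The call for Mccc2 (-0.35, adjusted p = 0.0195) ended without Aclyf/f preadipocyte library 2 (0.0522), and that for Hibadh (-0.34, adjusted p = 0.0134) with libraries scaled to one FPKM total (0.0716). Acadsb was just short of a call in the other direction (0.35, adjusted p = 0.0534) and was called without Aclyf/f preadipocyte library 2 (0.0247), without Acly-/- preadipocyte library 2 (0.0235), without Aclyf/f adipocyte library 3 (0.0416) and after quantile normalization (0.0318).

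**Figure D5:**
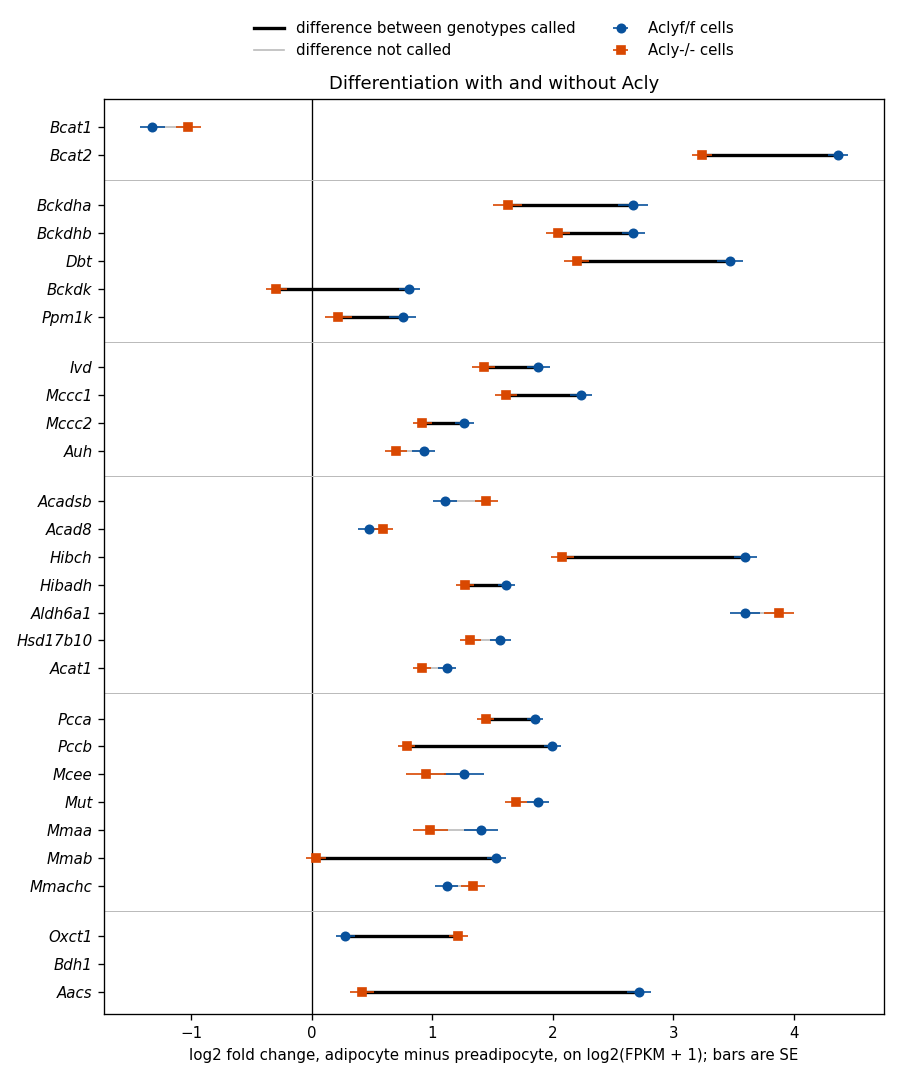
Log2 fold change with differentiation of each tested member in Aclyf/f (circles) and Acly-/- cells (squares), with SE as bars and a line between both, black where the difference between genotypes was called. The square lies to the left of the circle for all 15 members with a lower call, and to the right for Oxct1.

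Other genes of the pathway that are not among the 28 were 34 in number, of which 27 were tested. In Acly-/- adipocytes 17 fell and 5 rose (63.0% and 18.5%, against 29.2% and 25.6% of all genes tested), with a median log2 fold change of -0.43. In Acly-/- preadipocytes 8 fell and 10 rose (29.6% and 37.0%, against 22.4% and 19.7% of all genes), with a median of -0.02. Among enzymes and electron carriers shared with fatty acid oxidation 7 of 8 fell in adipocytes (29.2% of all genes did), with Hadh lowest in log2 fold change at 114 ± 3.96 against 60.4 ± 4.78 FPKM (-0.91, adjusted p = 2.71e-07). In preadipocytes 3 of those 8 fell (22.4% of all genes did), led by the electron carrier gene Etfdh at 46.4 ± 0.929 against 32.8 ± 2.83 FPKM (-0.49, adjusted p = 0.000128). Klf15, a transcription factor known to raise branched-chain amino acid breakdown, rose 29.8-fold with differentiation in Aclyf/f and 21.0-fold in Acly-/- cells. It stood at 90.0 ± 5.32 and 54.0 ± 2.63 FPKM in adipocytes with and without Acly (-0.73, adjusted p = 0.000244).

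Genes of amino acid transport were divided. Slc7a5, the large neutral amino acid transporter of the plasma membrane, stood at 18.5, 18.5 and 18.2 FPKM in Aclyf/f and 88.7, 81.6 and 127 FPKM in Acly-/- preadipocytes. In adipocytes it was 84.6 ± 4.37 and 108 ± 6.03 FPKM (log2 fold change 0.36, adjusted p = 0.0260). Its partner Slc3a2 was higher without Acly at both stages too (adjusted p = 1.18e-07 and 0.00673). Slc25a44, the carrier that takes branched-chain amino acids into mitochondria, stood at 46.7, 45.4 and 44.5 FPKM in Aclyf/f and 22.9, 24.2 and 23.2 FPKM in Acly-/- adipocytes, a 1.94-fold fall (-0.93, adjusted p = 1.54e-07). The plasma membrane transporter Slc43a1 was lower without Acly at both stages, 3.91 ± 0.220 against 0.834 ± 0.0739 FPKM in adipocytes (-1.42, adjusted p = 3.54e-08). Of 6 transport genes 4 rose and 2 fell in Acly-/- adipocytes, against 25.6% and 29.2% of all genes tested.

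Of the genes for ketone body synthesis and transport, 3 of 9 were tested. Bdh2, a cytosolic dehydrogenase, moved as Oxct1 did, from 5.69 ± 0.525 to 3.10 ± 0.242 FPKM in preadipocytes and from 2.31 ± 0.445 to 4.18 ± 1.09 FPKM in adipocytes without Acly (adjusted p = 0.00137 and 0.00200). Of 7 genes of biotin and cobalamin supply, 3 were higher and 3 lower in Acly-/- preadipocytes, against 19.7% and 22.4% of all genes tested. In adipocytes 0 were higher and 5 lower, against 25.6% and 29.2%. Among them the cobalamin carrier gene Tcn2 was lower without Acly at both stages. It was 44.6 ± 4.57 against 11.6 ± 0.0972 FPKM and 97.5 ± 4.34 against 27.2 ± 0.887 FPKM (adjusted p = 2.50e-09 and 7.31e-10). The cytosolic thiolase Acat2, which serves sterol synthesis, rose in preadipocytes from 17.3 ± 1.17 to 49.9 ± 2.07 FPKM and fell in adipocytes from 51.1 ± 6.17 to 30.1 ± 0.876 FPKM without Acly (adjusted p = 3.00e-08 and 8.82e-06).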

How the data were processed

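RNA was sequenced from 12 libraries, 3 for each genotype and stage. Per the submitters' processing notes, bcl2fastq, Bowtie2 2.2.6, Cufflinks 2.2.1 and mm10 were used, with no role or order given. The deposited values are FPKM, per the file headers, and no value lies under 0.01. The sources used here do not say which filter was applied or whether counting used strand, so reads of overlapping genes on opposite strands may not be told apart. Besides the overlaps named above, opposite-strand genes in GENCODE M21 share 15.9% of the exonic bases of Bcat2, 12.6% of Oxct1 and 13.7% of Bdh1.

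Genes that reached 1 FPKM in 3 or more libraries were transformed as log2(FPKM + 1) and fitted as 4 group means with limma 3.58.1 in R 4.3.3, with a variance trend. The method was tested on simulated data with independent noise and far fewer changed genes than were called here. That test does not show how the method performs on these libraries. Tables and figures used Python 3.11.15, pandas 2.3.3, numpy 2.4.6 and matplotlib 3.10.9. The 28 members, the lists and the contrasts were chosen with earlier results of these data known. Values in every library are given for members with the largest called change within a role and for those called in opposite directions at the 2 stages. Of other pathway genes, the one with the largest called change per list and stage is named, while Slc3a2 and Slc25a44 were named after their values were seen. Differentiation contrasts share their libraries with the contrasts between genotypes.

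Relative depth was estimated from the commonest ratio of values under 0.3 FPKM between libraries, and absolute depth was not estimated. Same-numbered libraries deviated together in the 3 pairs of Acly-/- preadipocytes and adipocytes (correlation of deviations from group means 0.123 to 0.147) and in no other pair of groups consistently. Larger correlations of the opposite sign occurred elsewhere. They were -0.414, -0.196 and -0.289 for Acly-/- preadipocytes with Aclyf/f adipocytes, and -0.293, -0.176 and -0.158 between the adipocyte groups. The positive values therefore do not show that the numbers mark shared cultures. Coordinates are RefSeq's on GRCm38.p6, the assembly of mm10, counted from 1. The loci given with the deposited values differ for some members. Among them are 35959306 to 36053547 for Mccc1, 84409068 to 84450950 for Aldh6a1 and 4020111 to 4155344 for Oxct1. Pcca is given at 122534328 to 122889944, where RefSeq has 122484365 to 122889944. Promoters are RefSeq's on the same build.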

Additional observations from a re-analysis of the deposited data

Results flagged for a closer look

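Differentiation moved 16 members differently in Acly-/- and Aclyf/f cells by the limma test of the difference itself. Values are log2 differences, Acly-/- minus Aclyf/f differentiation. They were -1.13 for Bcat2, -1.04 for Bckdha, -0.62 for Bckdhb, -1.27 for Dbt, -1.10 for Bckdk and -0.53 for Ppm1k. In the leucine arm they were -0.45 for Ivd, -0.62 for Mccc1 and -0.35 for Mccc2, and in the valine arm -1.52 for Hibch and -0.34 for Hibadh. They were -0.41 for Pcca, -1.21 for Pccb and -1.49 for Mmab, and among ketone body genes 0.94 for Oxct1 and -2.30 for Aacs. Over all genes tested 50.2% were called in this comparison. Groups of 3 libraries are too small for a test of single outlying libraries.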

How the results depend on the processing

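Of 2965 log2 fold changes recomputed for the 27 tested members under 23 alternatives, 2923 stayed on their side of the threshold, 21 lost a call, 21 gained one and 0 reversed. All 42 changes fell in 19 of the 135 results. The count of members called higher in the difference between differentiations, 1, became 2 after quantile normalization, with a pseudocount of 0.1 and with one of 0.01, and ranged from 1 to 2 when single libraries were left out. The other 14 counts stayed within 1.5 times their value under each alternative run. Leaving out single libraries gave 21 to 22 lower members in Acly-/- adipocytes, 8 to 11 lower and 4 to 5 higher in Acly-/- preadipocytes, and 15 to 17 lower for the difference. With the replicate number as a block, 21 members were lower in adipocytes, since Ppm1k lost its call (adjusted p = 0.0526), and no other member's call changed. The block within Acly-/- libraries alone, an alternative chosen after seeing the data, gave 23 higher and 2 lower members with differentiation. The numbers are not stated to mark shared cultures. No scaling moved the median of all genes by over 0.1 on the log2 scale. Bdh1 and other genes near the floor rest on few fragments.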

Other observations

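Mmab and Mvk, which encodes mevalonate kinase of sterol synthesis, lie head to head on chromosome 5. RefSeq places Mvk at 114444264 to 114460591 on the plus strand, with 190 bases between the 2 genes, so that the Mmab promoter window with its 5 CCAAT boxes reaches into the start of Mvk. Mvk stood at 15.1, 15.0 and 13.2 FPKM in Aclyf/f and 23.7, 23.6 and 33.1 FPKM in Acly-/- preadipocytes, so that it was higher in every library without Acly, as Mmab was (log2 fold change 0.83, SE 0.13, limma adjusted p = 0.000151). In adipocytes Mvk stood at 26.8, 21.3 and 21.5 FPKM with Acly and 20.2, 20.7 and 23.1 FPKM without, groups that overlapped (-0.11, SE 0.13, adjusted p = 0.487), while Mmab was lower without Acly. Mvk was looked up after the values of Mmab were seen.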
